A study of Mus musculus with 18 samples.

Results

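These data follow 10 genes of voltage-gated calcium channels and their auxiliary subunits in mouse dorsal root ganglia (DRG), the clusters of sensory neuron cell bodies beside the spinal cord, after injury to the peripheral or the central branch of their axons. The genes were taken by symbol from a count table of 15730 genes, and all 10 of 10 were in it. They were 3 alpha2delta genes (Cacna2d1, Cacna2d2, Cacna2d3), 5 genes of the pore-forming alpha1 subunit (Cacna1a, Cacna1b, Cacna1c, Cacna1e, Cacna1h) and 2 genes of cytoplasmic beta subunits (Cacnb3, Cacnb4). RNA of sciatic L4 to L6 ganglia from C57BL/6 mice aged 6 to 8 weeks was sequenced 24 hours after surgery, in 6 groups of 3 samples that each pooled 2 mice. SNA_Saline was sciatic nerve injury with saline and Sham_Saline its sham operation with saline. SNA_NAC was sciatic nerve injury with the antioxidant N-acetyl-cysteine at 30 mM, and Sham_H202 (spelled here as in the labels) was a sham operation with 13 mM hydrogen peroxide. DCA, read from the listed procedures as dorsal column injury in the spinal cord, had LAM, read as laminectomy, as its control. No group carried a transgene or deletion according to the labels.

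High-voltage-activated calcium channels are built from an alpha1 subunit that forms the pore and sets the channel class, a beta subunit that brings it to the membrane, and an extracellular alpha2delta subunit that raises surface density and is the binding site of gabapentin and pregabalin. Low-voltage-activated T-type channels can work without these auxiliary subunits. In sensory neurons N-type and P/Q-type channels trigger transmitter release in the spinal cord, T-type channels set excitability, and alpha2delta-1 is known for its increase in the ganglia after peripheral nerve damage.

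The libraries held 6472476 to 42435331 counts each. Atf3, a transcription factor of injured neurons that here checks the labels, lay at 412 to 478 normalised counts scaled to library size (CPM) in the 6 sciatic injury samples, 55.9 to 121 in the 6 sham samples and 12.2 to 39.6 in the 6 spinal surgery samples. The libraries differed in how counts depended on the GC content of the transcript, from a slope of -0.219 (Sham_H202 replicate 3) to 0.431 (Sham_Saline replicate 2) log2 units per SD of GC. Fold changes are therefore given from edgeR's quasi-likelihood test and again, where they moved, from the same test with offsets for GC content and transcript length. The summed level of 10 sensory neuron markers was 8889 to 10076 CPM in SNA_Saline and 9668 to 14243 CPM in Sham_Saline. That of 8 skeletal muscle markers ranged from 7.26 to 1259 CPM within Sham_Saline, and its part in the results below was not tested. In such bulk tissue fewer cells of a type and less RNA per cell cannot be told apart.

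The promoters of the pair of highest alpha2delta genes are shown because the pair diverged after sciatic injury, Cacna2d1 being higher and Cacna2d3 close to its control. These are the 250 bases before the start site in RefSeq (GRCm38.p6, the build that mm10 names), written 5′ to 3′ on the gene's strand, with capitals marking GGGCGG or its complement CCGCCC, the core of the Sp1 site. The Cacna2d1 window is chr5:15934441-15934690 on the plus strand, and the Cacna2d3 window is chr14:29721865-29722114 on the minus strand.
Cacna2d1: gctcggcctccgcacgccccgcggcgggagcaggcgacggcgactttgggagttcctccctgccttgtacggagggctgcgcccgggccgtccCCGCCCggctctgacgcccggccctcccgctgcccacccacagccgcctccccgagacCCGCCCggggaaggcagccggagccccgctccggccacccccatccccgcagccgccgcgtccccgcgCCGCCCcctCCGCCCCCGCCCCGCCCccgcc
Cacna2d3: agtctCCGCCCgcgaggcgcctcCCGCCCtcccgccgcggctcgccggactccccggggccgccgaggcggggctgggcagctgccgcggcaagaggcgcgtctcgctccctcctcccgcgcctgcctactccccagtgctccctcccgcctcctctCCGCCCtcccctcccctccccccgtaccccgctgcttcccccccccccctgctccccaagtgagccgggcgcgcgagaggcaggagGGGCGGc
Both windows were rich in G and C, at 82.4% for Cacna2d1 and 80% for Cacna2d3, against a median of 52.4% over 32851 promoter windows of this length. The Cacna2d1 window held 6 matches to the Sp1 core, 5 of them within the last 99 bases, and the Cacna2d3 window held 4, while 32.7% of all windows held at least 1. Neither held TGANTCA, the AP-1 site bound by Fos, Jun and Atf3 dimers (6.75% of all windows), TGACGTCA, the cyclic AMP response element (1.55%), or TATAAA (12.4%), on either strand. RefSeq windows matched 8 of the 10 genes. Such matches only describe the letters in the window.

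Per transcript length, the family spanned a wide range in the ganglia. Across all 18 samples the median FPKM (fragments per kilobase of transcript, scaled to library depth) was 51.8 for Cacnb3, 38.8 for Cacna2d1, 24.9 for Cacna2d3 and 16.1 for Cacnb4. Among the pore subunits Cacna1b, the N-type channel, led with a median of 8.05 FPKM, followed by Cacna1a (P/Q-type) at 2.78, Cacna1h (T-type) at 1.29, Cacna1c (L-type) at 1.23 and Cacna1e (R-type) at 0.185. Cacna2d2 had a median of 2.51 FPKM. Cacna2d1 exceeded Cacna2d3 in 18 of 18 samples, and Cacnb4 exceeded Cacna1b in all 18 with no overlap of their ranges. The order was not settled for Cacnb3 over Cacna2d1 (12 of 18 samples), Cacna1a over Cacna2d2 (9 of 18) and Cacna1h over Cacna1c (12 of 18). Cacna1e, at 0.0986 to 0.429 FPKM, stood below every other member in all samples.

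**Figure D1:**
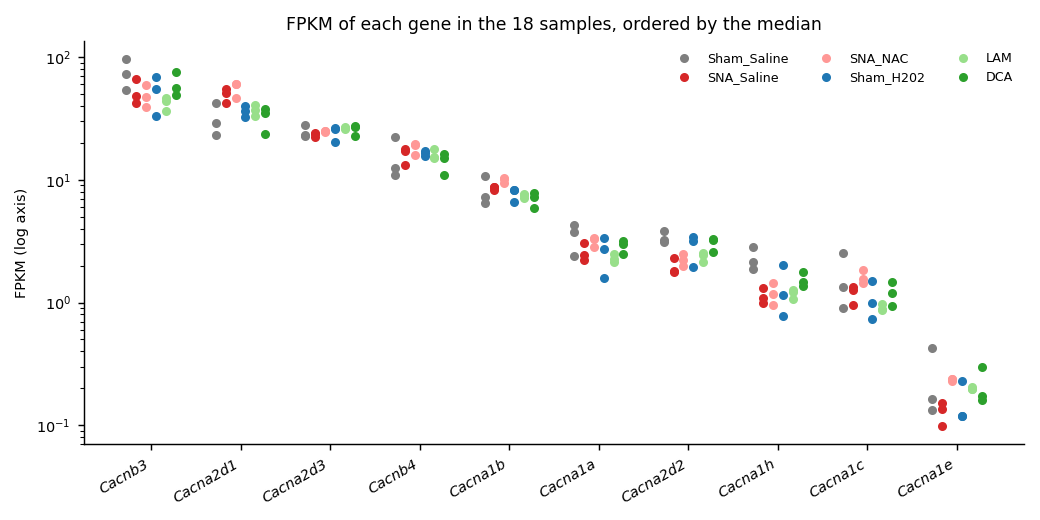
FPKM of the 10 genes on a log axis, 1 point per sample and coloured by group, with the genes in order of their median over 18 samples. Cacnb3 (median 51.8) and Cacna2d1 (38.8) stand at the top and overlap, and Cacna1e (0.185) stands apart at the bottom.

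The alpha2delta-1 gene Cacna2d1 (ENSMUSG00000040118, chromosome 5, 15934691 to 16374511, plus strand) was higher in every sciatic injury sample than in its sham group. Its level was 314, 177 and 215 CPM in the 3 Sham_Saline samples and 397, 428 and 316 CPM in the 3 SNA_Saline samples. It was 304, 239 and 287 CPM in Sham_H202 and 357, 469 and 462 CPM in SNA_NAC. Neither pair of groups overlapped, although Sham_Saline replicate 1 at 314 CPM came close to SNA_Saline replicate 3 at 316. The log2 fold change of SNA_Saline over Sham_Saline was 0.69 ± 0.21 (SE; 1.62-fold, n = 3 and 3) and did not pass edgeR's test over all genes (adjusted p = 0.0886). With GC and length offsets it was 0.47 ± 0.08 (1.39-fold) and passed (edgeR adjusted p = 0.000677), and it passed in each of the 6 fits that left out 1 of these samples (0.45 to 0.49; adjusted p from 0.00261 to 0.00599). Without offsets 1 of those 6 fits called it, the one without Sham_Saline replicate 1 (0.96, edgeR adjusted p = 0.0118).

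SNA_NAC against Sham_H202 uses none of the samples of the saline comparison, but its groups differ in both agents as well as in the injury. There Cacna2d1 had a log2 fold change of 0.63 ± 0.21 (edgeR adjusted p = 0.239) without offsets and 0.46 ± 0.08 (1.37-fold, edgeR adjusted p = 0.00143) with them. Leaving out each of these 6 samples kept the value with offsets between 0.39 and 0.52 and the adjusted p between 0.00137 and 0.012. The difference between both sciatic comparisons was 0.06 ± 0.29 log2 units for Cacna2d1 (edgeR adjusted p = 0.957). The transcript is GC-poor (40.7%), and across the 18 samples its log2 CPM fell with the library's GC slope (Pearson r = -0.75, given as a description since the points share their groups and lanes). Of all 15730 genes, 4.35% were called higher with offsets in the saline comparison and 3.2% in SNA_NAC against Sham_H202.

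The other alpha2delta genes did not follow Cacna2d1. Cacna2d2 (ENSMUSG00000010066, chromosome 9, 107399612 to 107529343, plus strand), which encodes alpha2delta-2, also a gabapentin-binding subunit, was 23.1, 19 and 19.3 CPM in Sham_Saline and 11.3, 11.1 and 13.9 CPM in SNA_Saline. All 3 injured samples lay below all 3 sham samples. Cacna2d2 fell by 0.75 on the log2 scale (SE 0.17; 0.593-fold, edgeR adjusted p = 0.0252) and, with offsets, by 0.48 (SE 0.13, edgeR adjusted p = 0.0352). With the replicate number, which is also the sequencing lane, as a block, the adjusted p was 0.0531 without offsets and 0.0557 with them. The call was also lost without SNA_Saline replicate 1 (edgeR adjusted p = 0.147) or replicate 2 (0.121). With offsets, leaving out 1 sample at a time moved the value between -0.62 and -0.35, and 1 of 6 fits called it. In SNA_NAC the gene was 15.4, 12.4 and 13.7 CPM against 19.7, 20 and 12.2 CPM in Sham_H202. These groups overlapped through Sham_H202 replicate 3, and the fold change of -0.33 ± 0.17 log2 did not pass (edgeR adjusted p = 0.603). Cacna2d3, encoding the gabapentin-insensitive alpha2delta-3, stayed within 78.2 to 105 CPM in all 18 samples, with a log2 fold change of -0.03 ± 0.11 in the saline comparison (edgeR adjusted p = 0.862) and 0.06 ± 0.11 in SNA_NAC against Sham_H202 (0.928).

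**Figure D2:**
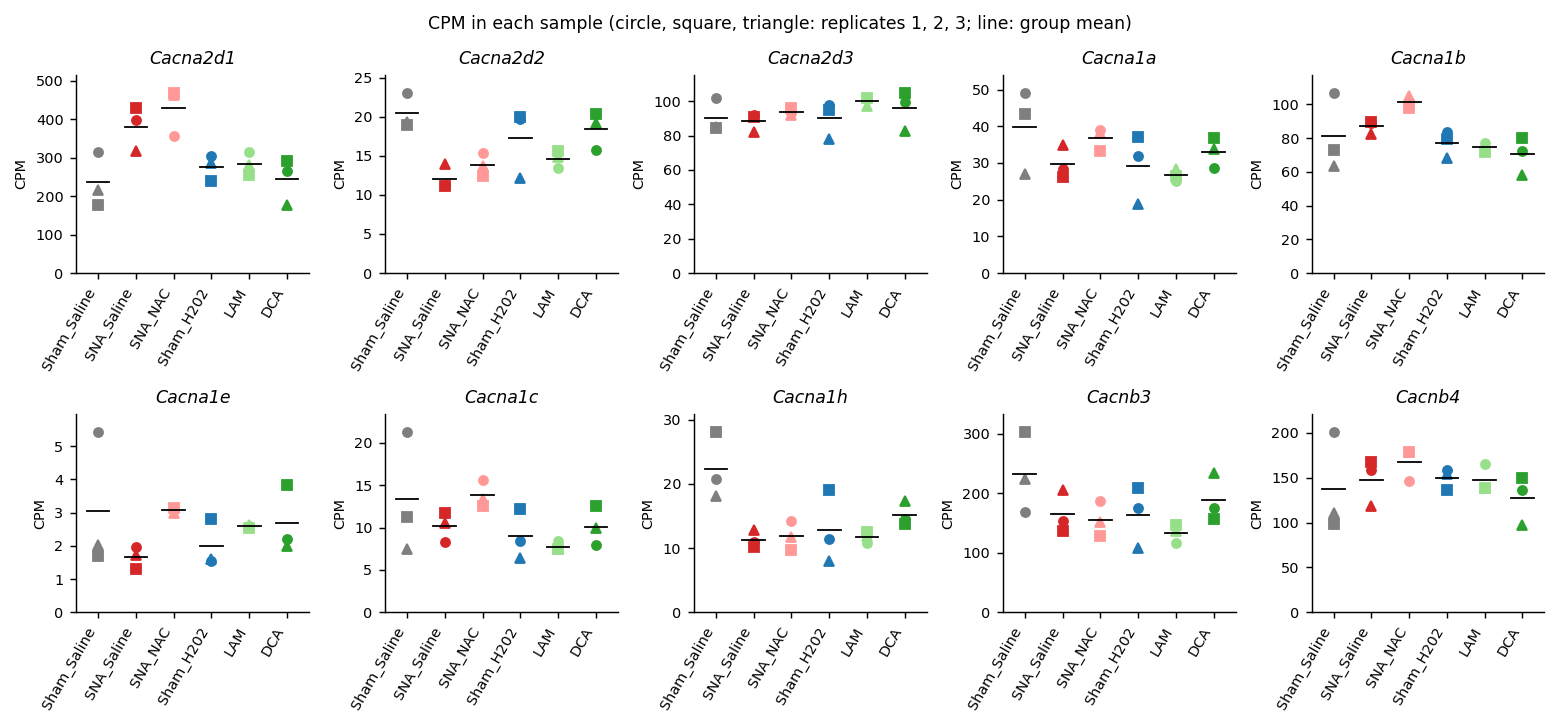
Normalised counts scaled to library size (CPM) of each of the 10 genes in every sample, 1 panel per gene, with points for samples and a bar for the group mean. Cacna2d1 lies between 316 and 469 CPM in both sciatic injury groups and between 177 and 315 in the other 4 groups, while Cacna2d2 and Cacna1h have their highest group mean in Sham_Saline (20.5 and 22.3 CPM).

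As a share of the summed FPKM of these 3 alpha2delta genes, Cacna2d1 made up 52.2% ± 4.68 (SD, n = 3) in Sham_Saline and 65.9% ± 2.65 in SNA_Saline. In SNA_NAC it made up 67.1% ± 3.51, in Sham_H202 57.4% ± 4.95, in LAM 56% ± 2.77 and in DCA 52.4% ± 3.94. The share of Cacna2d2 was 5.8% ± 0.57 in Sham_Saline and 2.67% ± 0.678 in SNA_Saline. That of Cacna2d3 was 42% ± 4.11 and 31.4% ± 2, with its own level passing no test. The lowest Cacna2d1 share in either sciatic injury group, 63.1%, was above the highest in any other group, 62.2%. These shares were calculated without offsets and were not tested.

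Among the pore subunits, the T-type gene Cacna1h (ENSMUSG00000024112, chromosome 17, 25374285 to 25433783, minus strand) fell in the saline comparison. Its level was 20.7, 28.1 and 18.1 CPM in Sham_Saline and 11, 10.1 and 12.8 CPM in SNA_Saline. The groups did not overlap, and the drop was 0.98 log2 units without offsets (SE 0.25; 0.506-fold, edgeR adjusted p = 0.0395) and 0.47 with them (SE 0.11; 0.722-fold, edgeR adjusted p = 0.0112). With the replicate block the adjusted p was 0.0734, and 0.0188 with block and offsets together. Without offsets the call was lost when Sham_Saline replicate 2 was left out (edgeR adjusted p = 0.191), and also without SNA_Saline replicate 1 (0.181), 2 (0.172) or 3 (0.0531). With offsets it held in each of the 6 fits (adjusted p from 0.0206 to 0.0449). Its mean of 22.3 CPM in Sham_Saline was the highest of the 6 groups. It lay at 14.2, 9.76 and 11.8 CPM in SNA_NAC, 11.4, 19.1 and 7.95 in Sham_H202, 10.8, 12.5 and 11.9 in LAM, and 14.6, 13.7 and 17.3 in DCA. SNA_NAC and Sham_H202 overlapped, and their log2 difference was -0.14 ± 0.25 (edgeR adjusted p = 0.907).

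The remaining pore subunits passed the test over all samples in neither sciatic comparison. Cacna1b, the N-type channel and the target of ziconotide, was 107, 73.1 and 63.2 CPM in Sham_Saline and 88.7, 89.7 and 82.4 CPM in SNA_Saline. It was 83.8, 79.5 and 68.3 CPM in Sham_H202 and 102, 98.1 and 105 CPM in SNA_NAC, where the groups did not overlap. Its log2 fold change was 0.10 ± 0.16 (edgeR adjusted p = 0.711) in the saline comparison and 0.40 ± 0.16 (0.383) in SNA_NAC against Sham_H202. With offsets these came close together, at 0.28 ± 0.10 and 0.26 ± 0.10, and did not pass (edgeR adjusted p = 0.11 and 0.211). In the saline comparison 1 of 6 fits with offsets that left out a sample called Cacna1b, the one without Sham_Saline replicate 1 (0.37, edgeR adjusted p = 0.0315). Cacna1a, the P/Q-type channel, had -0.42 ± 0.22 log2 in the saline comparison (edgeR adjusted p = 0.259), which became 0.02 ± 0.14 with offsets. The count table also holds genes that overlap Cacna1a (Gm16183), Cacna1c (Dcp1b), Cacna1h (Tpsg1) and Cacnb4 (A430018G15Rik) on the genome, and reads of such partners may not be separable, since the use of strand in counting is not given.

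Cacna1c and Cacna1e were more variable. Cacna1c, the L-type channel of cardiac and smooth muscle and of neurons, was 21.3, 11.2 and 7.46 CPM in Sham_Saline and 8.25, 11.7 and 10.6 CPM in SNA_Saline. Cacna1e, the R-type channel, was 5.43, 1.68 and 2.04 CPM in Sham_Saline and 1.98, 1.3 and 1.71 CPM in SNA_Saline. For both genes Sham_Saline replicate 1 was the highest of all 18 samples, and the groups overlapped. The saline log2 fold changes were -0.40 ± 0.30 for Cacna1c and -0.86 ± 0.39 for Cacna1e (edgeR adjusted p = 0.41 and 0.212). In SNA_NAC against Sham_H202 their values had the opposite sign, 0.58 ± 0.30 and 0.53 ± 0.38, with no overlap of samples and no call (edgeR adjusted p = 0.603 and 0.733). The difference between both sciatic comparisons was -1.39 ± 0.55 for Cacna1e (edgeR adjusted p = 0.707). Of all genes 0% passed that test, with 891 genes at an unadjusted p under 0.05.

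The beta subunit genes passed no edgeR test in either sciatic comparison, and their levels followed the GC slope of the libraries closely. Cacnb3, which encodes the main neuronal partner of N-type channels and is GC-rich (61.3%), was 169, 303 and 224 CPM in Sham_Saline and 154, 137 and 206 CPM in SNA_Saline. Its log2 CPM rose with the library's GC slope with r = 0.98 over 18 samples, and Cacnb4, GC-poor at 40.5%, fell with it at r = -0.83. The saline log2 fold change of Cacnb3 was -0.49 ± 0.25 (edgeR adjusted p = 0.244) without offsets and 0.01 ± 0.07 with them. For Cacnb4, a beta subunit also found with P/Q-type channels, it was 0.11 ± 0.22 (edgeR adjusted p = 0.779) and -0.08 ± 0.07. The ratio of Cacnb3 to Cacnb4 FPKM ran from 2.41 to 8.81 within Sham_Saline alone. Cacna1h, with the next highest GC content (60%), had r = 0.85, Cacna1a (58.4%) had r = 0.49, and Cacna2d2 (55.8%) had r = 0.57. The members between 48.3% and 52.9% GC had weaker values. These were r = -0.4 for Cacna1b, 0.096 for Cacna1c, -0.39 for Cacna2d3 and -0.19 for Cacna1e.

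**Figure D3:**
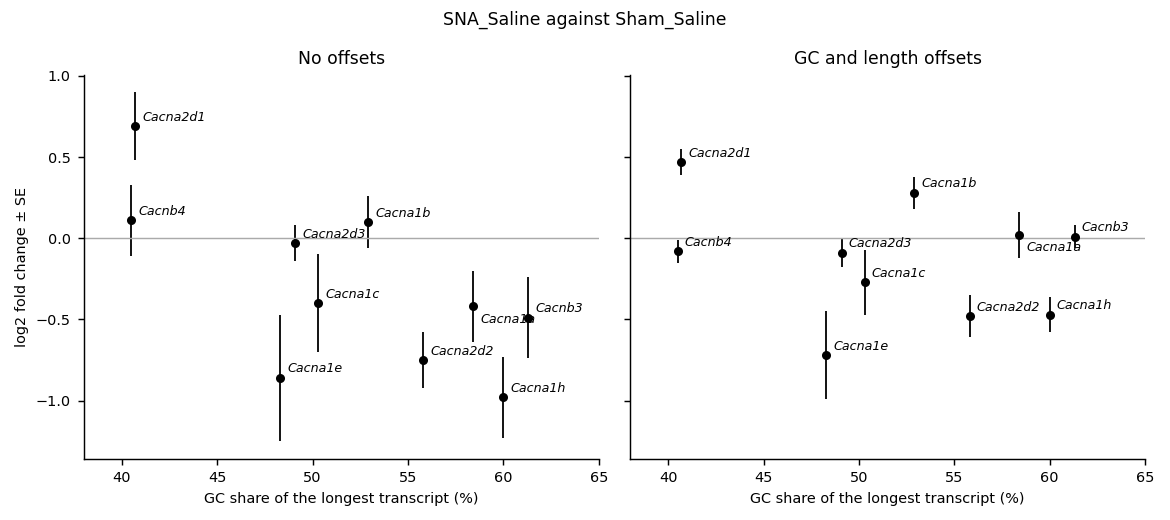
Log2 fold change of SNA_Saline over Sham_Saline with its SE, 1 point per gene, against the GC content of the gene's longest transcript in percent. The left panel is without and the right panel with GC and length offsets. Without offsets, GC-poor Cacna2d1 and Cacnb4 (40.7% and 40.5%) lie at 0.69 and 0.11. GC-rich Cacnb3 and Cacna1h (61.3% and 60%) lie at -0.49 and -0.98.

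Counted over the family, the saline comparison called 0 members higher and 2 of 10 lower. Of all genes 2.73% were called in either direction, 2.16% higher and 0.572% lower. With offsets 1 member was called higher and 2 lower, and of all genes 7.43% were called, 4.35% higher and 3.08% lower. Members without overlap between the saline groups were Cacna2d1, higher (10.3% of all genes), and Cacna2d2 and Cacna1h, lower (8.8%). The median log2 fold change was -0.41 over the members and -0.03 over all genes, or -0.09 and -0.06 with offsets. Over the 10 sensory neuron markers it was also -0.41, or -0.19 with offsets. SNA_NAC against Sham_H202 called 0 of 10 members without offsets (1.13% of all genes) and 1, Cacna2d1, with them (4.13%). There 4 members, Cacna2d1, Cacna1b, Cacna1c and Cacna1e, were higher without overlap (12.2% of all genes).

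**Figure D4:**
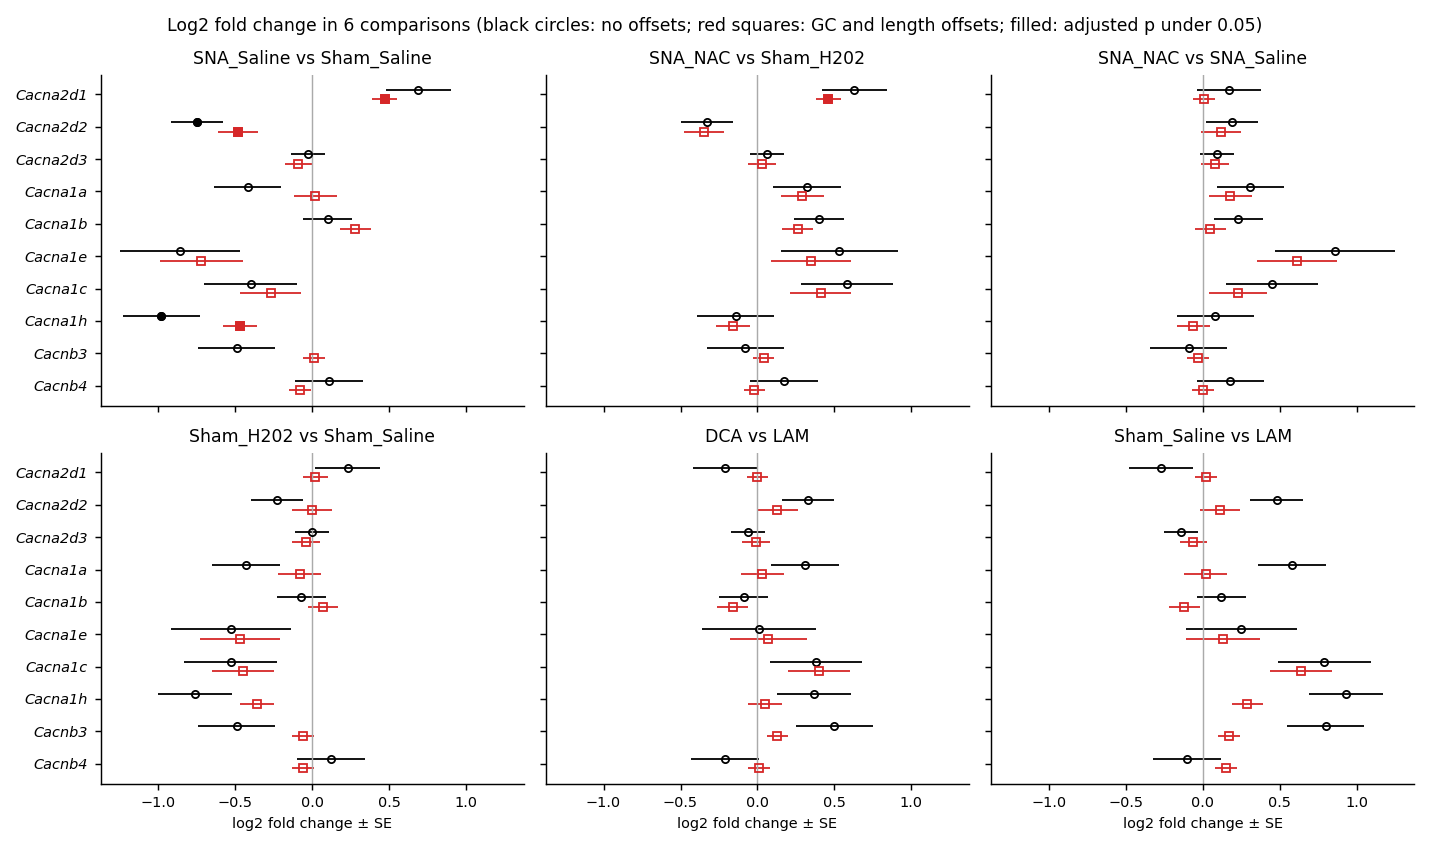
Log2 fold change with its SE for each gene in 6 comparisons, black circles without and red squares with GC and length offsets, filled where the edgeR adjusted p was under 0.05. Filled symbols appear for Cacna2d1, Cacna2d2 and Cacna1h in the saline comparison and for Cacna2d1 in SNA_NAC against Sham_H202, and in no other panel.

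No member passed the edgeR test for either agent. SNA_NAC against SNA_Saline shares its injury and differs in N-acetyl-cysteine, and edgeR called 0 of 10 members and 0% of all genes, with 314 genes at an unadjusted p under 0.05 and 0 called by DESeq2. The samples did not overlap for Cacna2d3, Cacna1b, Cacna1c and Cacna1e, all higher with N-acetyl-cysteine (9.24% of all genes were higher in this way). For Cacna1e, at 3.11, 3.13 and 2.99 CPM in SNA_NAC, the log2 difference was 0.86 ± 0.39 (edgeR adjusted p = 1). Cacna2d1 differed by 0.17 ± 0.21, or 0.01 ± 0.07 with offsets. Sham_H202 against Sham_Saline likewise called 0 of 10 members and 0% of genes, with 1440 genes at an unadjusted p under 0.05 and 4 genes called by DESeq2. There Cacna1h had the lowest p of the members, with -0.76 ± 0.24 log2 (edgeR adjusted p = 0.449) and overlapping samples, or -0.36 ± 0.11 (0.588) with offsets. SNA_Saline against Sham_Saline, SNA_NAC against SNA_Saline and Sham_H202 against Sham_Saline share groups with each other and are not independent.

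Dorsal column injury, which damages the central branch of sensory axons, gave no member a call. DCA against LAM had 0 of 10 members and 0% of all genes called by edgeR, with 793 genes at an unadjusted p under 0.05 and 2 genes, none a member, called by DESeq2. Cacna2d1 was 315, 255 and 280 CPM in LAM and 265, 292 and 177 CPM in DCA, with a log2 fold change of -0.21 ± 0.21 (edgeR adjusted p = 0.664), or -0.00 ± 0.07 with offsets. Cacna2d2 was 13.4, 15.6 and 14.9 CPM in LAM and 15.7, 20.4 and 19.2 CPM in DCA. Cacna2d2, Cacna1a, Cacna1h and Cacnb3 were higher in every DCA sample than in every LAM sample (11.9% of all genes were), with log2 fold changes of 0.31 to 0.50 that did not pass (edgeR adjusted p = 0.624 for each). With offsets these 4 lay between 0.03 and 0.13.

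The response to sciatic injury was set against that to dorsal column injury by the difference of the log2 fold changes, SNA_Saline over Sham_Saline minus DCA over LAM. This difference was -1.08 ± 0.24 for Cacna2d2 (edgeR adjusted p = 0.037), the only member of 10 to pass, where 1.61% of all genes passed. With the replicate block its adjusted p was 0.0727, with offsets the difference was -0.61 ± 0.18 (edgeR adjusted p = 0.0602), and the call held in 4 of 12 fits that left out 1 sample (adjusted p from 0.0202 to 0.118), those without Sham_Saline replicate 1 or 3, SNA_Saline replicate 3 or DCA replicate 1. For Cacna2d1 the difference was 0.91 ± 0.29 (edgeR adjusted p = 0.0881) without offsets and 0.47 ± 0.11 (0.0176) with them, where 5.25% of all genes passed. That call with offsets held in 11 of 12 fits that left out 1 sample and was lost without SNA_Saline replicate 1 (edgeR adjusted p = 0.0582). Cacna1h had -1.36 ± 0.34 (edgeR adjusted p = 0.058), or -0.52 ± 0.15 (0.0511) with offsets. Cacnb3 had -0.99 ± 0.35 (edgeR adjusted p = 0.0942) without offsets. With offsets and 1 sample left out, its difference lay between -0.17 and -0.08 and was called in 0 of 12 fits. DESeq2, run without offsets, called 12.4% of 13899 genes. Its calls included Cacna1h (DESeq2 adjusted p = 0.0079), Cacna2d1 (0.0368) and Cacnb3 (0.0484). Without Sham_Saline replicate 1 edgeR called 5 members, Cacna2d1, Cacna2d2, Cacna1h, Cacnb3 and Cacnb4. Over the 12 fits that left out 1 sample, 0 to 5 members and 55 to 4600 of all genes were called.

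The controls of both surgeries were also set against each other. Sham_Saline against LAM called 0 of 10 members and 0.0699% of all genes, but 5 members, among them Cacna1h and Cacnb3, had an unadjusted p under 0.05, as did 30.3% of all genes. Cacna1h was 0.93 ± 0.24 and Cacnb3 0.80 ± 0.25 log2 units higher in Sham_Saline (edgeR adjusted p = 0.104 for each). With offsets these were 0.29 ± 0.10 and 0.17 ± 0.07. DESeq2 called 2 members here, Cacna1h and Cacnb3, and 8.21% of the 13899 genes to which it gave an adjusted p. Without Sham_Saline replicate 1 edgeR called 3 members, Cacna1h, Cacnb3 and Cacnb4. Over the fits that left out 1 sample, edgeR called 0 to 3 members and 4 to 5009 of all genes. Cacna2d2, Cacna1h and Cacnb3 did not overlap between the controls (16.4% of all genes were higher in this way), while Cacna2d1 overlapped and differed by 0.02 ± 0.07 with offsets.

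The other genes of the pathway, in lists set by function, were mostly uncalled in the sciatic comparisons. Of 16 further channel subunits 11 were in the table, and in the saline comparison 0 were called higher and 2 lower. These were Cacng2 (stargazin), at 14.4 ± 0.59 CPM in SNA_Saline against 20.8 ± 2.09 in Sham_Saline (-0.53 ± 0.12 log2, edgeR adjusted p = 0.0195), and Cacng5, at 13.5 ± 0.975 against 20.6 ± 3.06 CPM (-0.61 ± 0.15, 0.0392). Both are better known as partners of AMPA-type glutamate receptors, and both also passed with offsets (edgeR adjusted p = 0.00344 and 0.011). With the replicate block Cacng5 had an adjusted p of 0.0555. In fits without offsets, both lost their call without Sham_Saline replicate 2 (Cacng2 0.0954, Cacng5 0.0902), SNA_Saline replicate 1 (0.113 and 0.178) or SNA_Saline replicate 2 (0.0863 and 0.161). Cacng5 also lost it without SNA_Saline replicate 3 (0.0528). With offsets and 1 sample left out, Cacng2 was called in 6 of 6 fits (adjusted p from 0.00435 to 0.0252) and Cacng5 in 5 of 6 (0.00714 to 0.0579). SNA_NAC against Sham_H202 called 0 of these 11. With offsets the difference of the sciatic and dorsal column responses was called for Cacng2 (-0.49 ± 0.13, edgeR adjusted p = 0.0421) and Cacng5 (-0.65 ± 0.18, 0.0466). With 1 sample left out as well, these calls held in 3 and 1 of 12 fits.

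Of 24 partners and regulators of calcium channels 22 were in the table, and 1 was called higher and 0 lower in each sciatic comparison. It was Stac, an adaptor that slows inactivation of L-type channels, at 96.7 ± 2.5 CPM in SNA_Saline against 66.5 ± 6.6 in Sham_Saline (0.54 ± 0.09 log2, edgeR adjusted p = 0.00247). In SNA_NAC it was 97 ± 1.59 CPM against 65.5 ± 2.59 in Sham_H202 (0.57 ± 0.09, edgeR adjusted p = 0.00304). Stac was called with the block and without each sample in turn in both comparisons. Its difference between the sciatic and the dorsal column response was 0.45 (edgeR adjusted p = 0.0727) without offsets and 0.86 ± 0.15 (0.00443) with them. That difference was called in 1 of 12 fits that left out 1 sample without offsets, and in 12 of 12 with them. Gem, a small GTPase that inhibits calcium channels through their beta subunit, differed between the sciatic and the dorsal column response by 1.43 ± 0.33 (edgeR adjusted p = 0.0401). Its level was 1.58 ± 0.442 CPM in Sham_Saline, 2.79 ± 0.26 in SNA_Saline, 2.81 ± 0.353 in LAM and 1.79 ± 0.201 in DCA. Its adjusted p was 0.0708 with the block and 0.0503 with offsets, and 2 of 12 fits that left out 1 sample called it, those without Sham_Saline replicate 1 or SNA_Saline replicate 3 (range 0.0197 to 0.134).

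All 22 of 22 listed calcium pumps, exchangers and store channels were measured, and 1 rose in each sciatic comparison. Itpr1, the inositol trisphosphate receptor that releases calcium from the endoplasmic reticulum, was 56.6 ± 5.39 CPM in SNA_Saline against 19.5 ± 4.05 in Sham_Saline (1.54 ± 0.14 log2, edgeR adjusted p = 9.1e-06). It was 60 ± 3.46 CPM in SNA_NAC against 23.7 ± 1.5 in Sham_H202 (1.34 ± 0.14, edgeR adjusted p = 9.9e-05), and 19.3 ± 0.847 in LAM and 18.9 ± 2.86 in DCA. In log2 size these changes exceeded those of all 10 members in the same comparisons, and both passed with offsets, with the block and in every fit that left out 1 sample. The difference between the sciatic and dorsal column responses of Itpr1 was 1.57 ± 0.2 (edgeR adjusted p = 0.000742), or 1.55 ± 0.12 (1.11e-06) with offsets. It was called in 12 of 12 fits that left out 1 sample. For Itpr3 this difference was -1.38 without offsets (edgeR adjusted p = 0.06), where DESeq2 called it (adjusted p = 0.0078). With offsets edgeR called it (-0.69 ± 0.19, adjusted p = 0.0443). With offsets and the block its edgeR adjusted p was 0.0534. Of 12 fits that left out 1 sample, 1 called it without offsets and 5 with them. Slc8a2, a sodium-calcium exchanger, had a difference of -1.46 ± 0.31 between the sciatic and dorsal column responses (edgeR adjusted p = 0.0296), which became -0.77 with offsets (0.115), had an adjusted p of 0.0519 with the block, and was called in 4 of 12 fits that left out 1 sample (those without Sham_Saline replicate 1 or 3, SNA_Saline replicate 3 or DCA replicate 2; range 0.0189 to 0.1). With offsets Ryr3 (0.53 ± 0.14) and Stim2 (0.31 ± 0.09) were also called higher and Atp2b2, a plasma membrane calcium pump, lower (-0.38 ± 0.08) in the saline comparison (edgeR adjusted p = 0.0302, 0.0433 and 0.00996). With offsets and 1 sample left out, Atp2b2 was called in 6 of 6 fits, Ryr3 in 2 of 6 (those without Sham_Saline replicate 1 or SNA_Saline replicate 3) and Stim2 in 1 of 6 (that without Sham_Saline replicate 3). With offsets and the block Stim2 had an adjusted p of 0.0631.

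Of the cell type markers, 0 of 10 sensory neuron genes were called in either sciatic comparison without offsets, while with them 2 were lower in the saline comparison and 1 in SNA_NAC against Sham_H202. Gfap, a marker of activated glia, was 5 ± 1.6 CPM in SNA_Saline against 1.71 ± 0.52 in Sham_Saline (edgeR adjusted p = 0.00497), and 4.45 ± 0.804 in SNA_NAC against 1.74 ± 0.818 in Sham_H202 (0.0372, or 0.0691 with the block; called in 1 of 6 fits that left out 1 sample, the one without Sham_H202 replicate 1). Glul, a glutamine synthetase of satellite glia, was 488 ± 26.9 CPM in SNA_NAC against 367 ± 21.6 in Sham_H202 (edgeR adjusted p = 0.0389, and from 0.0755 to 0.229 with samples left out). With offsets and 1 sample left out, edgeR called Glul in 6 of 6 of these fits and Gfap in 5 of 6. Glul had the highest log2 fold change of 6 satellite glia markers there (median 0.03, range -0.38 to 0.41). The summed level of these 6 markers was 1849 to 2009 CPM in SNA_Saline and 1530 to 1884 CPM in Sham_Saline. It overlapped between SNA_NAC (1833 to 2107 CPM) and Sham_H202 (1596 to 2529 CPM). Without offsets, 0 genes were called in either sciatic comparison among 6 Schwann cell myelin, 8 skeletal muscle, 5 macrophage, 4 fibroblast, 4 endothelial and 5 red blood cell markers. Summed Schwann cell myelin markers lay at 7988 to 8613 CPM in SNA_Saline and 6319 to 10390 in Sham_Saline, and macrophage markers at 41.6 to 45.8 and 39.8 to 47.8. All 8 skeletal muscle markers had negative log2 fold changes in both comparisons, with a median of -1.65 (range -2.71 to -1.0) for saline and -1.7 (-1.94 to -1.46) for SNA_NAC against Sham_H202. Their summed level overlapped between groups, at 25.5 to 276 CPM in SNA_Saline, 7.26 to 1259 in Sham_Saline, 34.3 to 106 in SNA_NAC and 58.8 to 497 in Sham_H202. Of 4 central nervous system glia markers 2 were in the table, Gfap among them. The part of these shifts in the members' values was not tested.

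Cacna2d1, Cacna1h and Cacna2d2 had the smallest p of the members in the saline comparison without offsets. The genes whose levels across the 18 samples were most like theirs were found by Pearson correlation of log2 CPM. For Cacna2d1 they were Stam (r = 0.993), Acsl4 (0.992) and Tsc22d2 (0.986), and for Cacna1h Tpcn1 (0.962), Urgcp (0.96) and Ptprs (0.958). For Cacna2d2 they were Slc36a1 (0.927), Hjurp (0.925) and Plekha6 (0.921). The genes nearest to Cacna2d1 (40.7% GC) had GC contents of 39% to 45.1%, and those nearest to Cacna1h (60%) 54.7% to 60.3%. Those nearest to Cacna2d2 (55.8%) had 50.2% to 54.9%, all below their member. The correlations used levels without offsets, and the part of base composition in them was not tested.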

How the data were processed

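RNA of 18 pooled ganglion samples was sequenced with a stranded mRNA kit, single end, 6 libraries to a lane, and the lane equals the replicate number, per the labels. The deposited counts per gene were made by the authors with TopHat2 2.0.12, Bowtie2 2.2.3 and HTSeq 0.6.0 on mm10, as listed in the submitters' processing notes. Whether counting used strand is not given in the sources used here. The lowest mean count in the table is 10.1. The deposited FPKM values were computed by the authors, and for each member they are proportional to the counts within a sample.

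Counts were tested with edgeR 4.0.16 (R 4.3.3): TMM scaling, quasi-likelihood fit over all 18 samples in 6 groups, Benjamini-Hochberg adjustment over 15730 genes and a threshold of 0.05. SEs were derived as the log2 fold change over the square root of F. GC and length offsets came from natural splines with 5 degrees of freedom on the longest GENCODE M21 transcript, found for 15648 genes. CPM values are TMM-scaled. Alternatives were a replicate block, DESeq2 1.42.0, limma 3.58.1 on log2(FPKM + 1) and log2(FPKM + 0.1), fits on the compared groups only, and each sample left out. The difference of both sciatic comparisons, the FPKM shares and the offsets with a sample left out were added after seeing the data. On simulated data for SNA_Saline against Sham_Saline (15730 genes) and no GC bias, edgeR recovered 60% of genes changed by a log2 fold of 1 and 16% of those changed by 0.58, with 4 false calls of 117. When GC bias was simulated as well, these shares were 30% and 4% without offsets (0 false calls of 69) and 66% and 14% with them (4 of 120). For decreases by a log2 fold of 1 the share was 58% without GC bias. With GC bias it was 24% without offsets and 56% with them. The simulated bias was a straight line in GC with preset slopes, on a spread estimated from the real counts without offsets. The shares hold for that setting only.

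Deviations of same-numbered samples from their group means correlated at between -0.647 and 0.555. The labels tie the number to the lane, and whether it pairs samples in any other way was not tested. The labels do not say that samples of a group came from separate operations, so p-values measure the spread between samples. The members and gene lists were chosen with earlier results of these data known. Named genes are all members, list genes past the threshold and the 3 genes most correlated with each of 3 members. Those were the 3 members with the smallest p in the saline comparison, and the correlated genes had a mean count of at least 50. Marker lists covered sensory neurons, satellite glia, Schwann cell myelin, skeletal muscle, macrophages, fibroblasts, endothelium, central nervous system glia and red blood cells.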

Additional observations from a re-analysis of the deposited data

Results flagged for a closer look

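The sciatic and the dorsal column responses of Cacna2d2 differed by -1.08 ± 0.24 log2 units in edgeR's interaction test (adjusted p = 0.037), with 3 samples in each of 4 groups. The gene was lower in all 3 SNA_Saline samples than in all 3 Sham_Saline samples, and higher in all 3 DCA samples than in all 3 LAM samples. Sham_Saline was itself 0.48 ± 0.17 log2 units above LAM (edgeR adjusted p = 0.106), and with GC and length offsets this gap was 0.11 ± 0.13. The difference of responses was not called with the lane as a replicate block (edgeR adjusted p = 0.0727) or with offsets (-0.61 ± 0.18, 0.0602), and was called in 4 of 12 fits that left out 1 sample.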

How the results depend on the processing

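Among 1180 single-gene values under the alternative settings, 1061 kept their direction and their side of the threshold, 25 lost a call, 26 gained one, 68 uncalled values changed sign, and none that was called turned its direction. Most of these values belonged to results uncalled in the main fit, which had no call to lose. Of the calls in the main fit, Cacna2d2 in the saline comparison was kept in 11 of 16 alternatives and Cacna1h in 9 of 16. The call for Cacna2d2 in the difference of responses was kept in 9 of 22. The number of members called in SNA_Saline against Sham_Saline, 2, became 0 with the replicate block, 0 when only those groups were fitted and 1 with limma on log2(FPKM + 0.1), and ran from 0 to 3 when samples were left out. In SNA_NAC against Sham_H202 it rose from 0 to 1 with GC and length offsets, with or without the block. Against LAM, Sham_Saline went from 0 to 2 with DESeq2 and 0 to 3 over samples left out. For the difference of the sciatic and dorsal column responses, 1 became 0 with the block and with limma at both pseudocounts, 2 on the compared groups, 4 with DESeq2, 4 at an adjusted p under 0.10, and 0 to 5 with samples left out. With offsets, 3 members were called in the saline comparison and 2 with the block too. Beyond these, the block changed no count of members. With only the compared groups fitted, which leaves fewer samples, the saline comparison gave adjusted p of 0.191 for Cacna2d2, 0.157 for Cacna1h, 0.288 for Cacng2, 0.28 for Cacng5, 0.15 for Gfap and 0.215 for Stac, and SNA_NAC against Sham_H202 gave 0.0506 for Stac, 0.145 for Gfap and 0.199 for Glul. DESeq2 called Cacna2d1 in the saline comparison (adjusted p = 0.0354) and not in SNA_NAC against Sham_H202 (0.136). Of 344 values for the listed pathway and marker genes, 262 kept their side of the threshold, 55 lost a call and 27 gained one.

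Over all genes, the saline comparison called 430, against 1169 with offsets (1002 with the block too), 65 on its groups alone, 863 with DESeq2, 822 at 0.10 and 174 to 2548 with samples left out. SNA_NAC against Sham_H202 called 178, against 650 with offsets, 588 with offsets and the block, 148 with the block alone, 71 on its groups, 281 with DESeq2 and 88 to 131. Sham_Saline against LAM called 11, against 25 with offsets, 17 with the block too, 6 with the block alone, 4 with at least 10 counts in every sample, 1 on its groups, 5 with limma on log2(FPKM + 1), 1141 with DESeq2 and 4 to 5009. The difference of responses called 254, against 118 with the block, 826 with offsets, 556 with both, 151 on its groups, 1723 with DESeq2, 2398 at 0.10 and 55 to 4600. The causes were not tested.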
